A study of Mus musculus with 8 samples.

Results

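Chemokines are small secreted proteins that draw leukocytes along a gradient, and their receptors are G protein-coupled receptors on the cells that follow. Here the chemokine ligand and receptor genes are described in mouse colon tumours with and without an active form of the kinase AKT. The members are all protein-coding genes whose symbols read Ccl, Cxcl, Ccr or Cxcr with a number, plus Cx3cl1, Cx3cr1, Xcl1 and Xcr1. The rule found 55 of the 38355 genes in the count tables, 37 of them ligands and 18 receptors. The gene for the CXCR3 ligand Cxcl11 matched by name but is annotated as a polymorphic pseudogene in the mouse and is no member. The platelet chemokines Pf4 and Ppbp carry other symbols and are likewise outside the rule.

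All 8 mice had received azoxymethane, a colon carcinogen, and all carried the Trp53ΔIEC genotype, in the field's notation a loss of the tumour suppressor p53 in intestinal epithelial cells. In 4 of them this was the whole labelled genotype (Trp53ΔIEC), and the other 4 also carried AktE17K, an activating substitution of the kinase (Trp53ΔIECAktE17K). A single whole tumour was sequenced from each mouse, so that the 4 replicates of a group are separate animals. The sources used here do not name the Cre driver, the ages of the mice or the time after the carcinogen. Whole tumours hold stromal and immune cells beside the epithelium that carries the alleles.

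Between 18572180 and 26268547 reads were assigned to genes per tumour. Levels are in CPM, the reads of a gene scaled to a common library size of 1000000 reads, and fold changes are Trp53ΔIECAktE17K over Trp53ΔIEC. The colon epithelial markers summed to 8449 to 10880 CPM in the Trp53ΔIEC tumours and 5014 to 10712 CPM in the Trp53ΔIECAktE17K tumours, so the labelled tissue was present in all 8. Some genes listed for other organs also differed between the groups. Of 9 tested heart muscle genes 7 were higher in Trp53ΔIECAktE17K tumours (sums of 162 to 232 against 36.9 to 115 CPM). With a median log2 fold change of 5.92, some may have passed the filter on low counts only through that group. Of 11 tested hepatocyte genes 2 were lower. Over all genes tested, 3.44% were called higher and 0.756% lower. The hepatocyte sums overlapped, with 66.8 to 100.1 CPM in Trp53ΔIEC tumours and 22.2 to 146 CPM in the others. The highest of the 8 was Trp53ΔIECAktE17K replicate 3. Whether these reads came from other organs, and their part in the chemokine results, was not tested.

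In background terms, the CXC ligands with the ELR motif act on Cxcr2 and draw neutrophils, the interferon-induced ligands Cxcl9 and Cxcl10 act on Cxcr3 of T and NK cells, and CC ligands such as Ccl2, Ccl3 and Ccl11 draw monocytes, macrophages and eosinophils. A further group, with Cxcl12 and Cxcl14, is made largely by stroma and epithelium without an inflammatory trigger. Many of the inflammatory genes are switched on through the transcription factor NF-kB, which binds the kappaB element.

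The promoters of Cxcl1, Cxcl2 and Cxcl3 are shown because these 3 neighbouring ligand genes carry the same kappaB element, and those of Ccl9 and Ccr3 because they are the called members with a match. The sequences are RefSeq's on GRCm38.p6, 5′ to 3′ in the direction of the gene, and capitals mark the kappaB consensus, searched on both strands with overlapping matches joined. The stretches of the first 3 genes run from 120 to 31 bases before the annotated start, that of Ccl9 from 120 to 1 and that of Ccr3 from 200 to 81.
Cxcl1, chr5:90891125-90891214, plus strand: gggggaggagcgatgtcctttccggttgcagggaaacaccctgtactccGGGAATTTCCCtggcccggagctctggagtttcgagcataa
Cxcl2, chr5:90903779-90903868, plus strand: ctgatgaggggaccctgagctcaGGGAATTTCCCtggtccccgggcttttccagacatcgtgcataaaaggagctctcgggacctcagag
Cxcl3, chr5:90785981-90786070, plus strand: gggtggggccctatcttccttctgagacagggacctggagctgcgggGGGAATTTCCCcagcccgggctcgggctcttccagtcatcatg
Ccl9, chr11:83578637-83578756, minus strand: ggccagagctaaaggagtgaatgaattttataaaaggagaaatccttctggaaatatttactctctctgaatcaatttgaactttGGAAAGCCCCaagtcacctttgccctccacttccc
Ccr3, chr9:124021771-124021890, plus strand: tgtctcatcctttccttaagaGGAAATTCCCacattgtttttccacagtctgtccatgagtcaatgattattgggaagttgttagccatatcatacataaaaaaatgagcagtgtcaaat
Promoter entries were found for 41 of the 55 members, in 48 windows of the 250 bases before a start. The consensus was present in 20.8% of these windows, from 10 genes, and in 7.25% of all 32851 windows. Among the called members 5 had an entry, while Ccl11 had none and was not searched. A match is a description of these letters and not evidence of binding.

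Of the 55 members, 45 passed the filter on low counts and were tested. In the Trp53ΔIECAktE17K tumours 5 were higher, the ligands Cxcl14, Cxcl12, Ccl11 and Ccl9 and the receptor Cxcr4, and 1 was lower, the receptor Ccr3 (edgeR quasi-likelihood test, Benjamini-Hochberg adjusted p under 0.05 over 16539 genes). Over all genes tested, 3.44% were called higher and 0.756% lower, together 4.20%. Among the members 13 had an unadjusted p under 0.05, 10 of them higher and 3 lower, where 20.8% of all genes did, 12.8% higher and 8.07% lower. The groups did not overlap in 9 tested members, 8 higher and 1 lower, against 14.2% of all genes, 8.34% higher and 5.88% lower. The median log2 fold change was 0.66 over the 30 tested ligands and -0.17 over the 15 tested receptors, beside 0.01 over all genes. With 1 tumour left out the ligand median was 0.57 to 0.88 and the receptor median -0.61 to 0.30, the latter being positive only without Trp53ΔIEC replicate 3. With the letter of the sample titles as a term the medians were 0.38 and -0.33. Between tumours of the same group the median level of the members, on the log2 scale, had an SD of 0.60 for ligands and 0.67 for receptors. The ligand median was hardly larger than this spread between single tumours. Such an SD is not the error of a difference between groups of 4, and the medians were not tested.

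**Figure D1:**
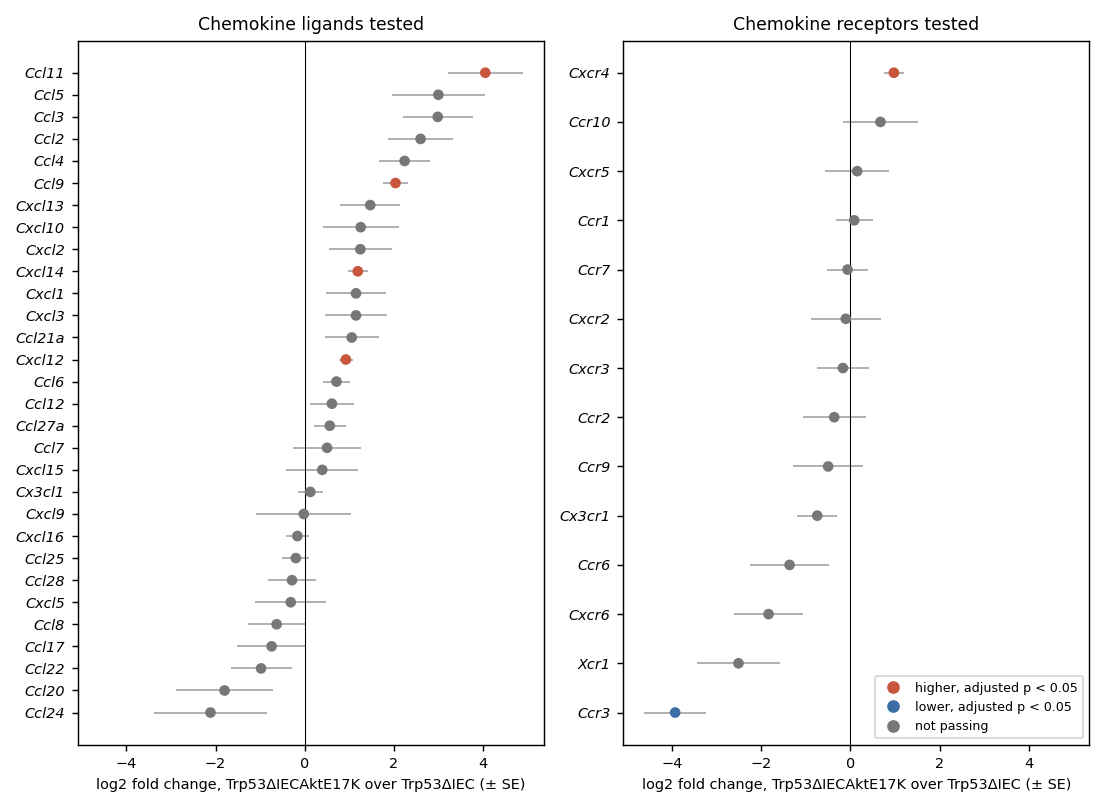
Log2 fold change of Trp53ΔIECAktE17K over Trp53ΔIEC for the 30 tested ligands (left) and 14 of the 15 tested receptors (right), with bars for the standard error. Ccl11, at 4.05, is the highest and Ccr3, at -3.93, the lowest, and 5 members in orange and 1 in blue passed the test.

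Cxcl14, a chemokine of epithelium and fibroblasts with no settled receptor, was the ligand with the highest level per length over the 8 tumours (93.7 CPM per kb of exon in Trp53ΔIEC and 214 CPM per kb in Trp53ΔIECAktE17K tumours). Its level was 151, 154, 161 and 219 CPM in Trp53ΔIEC replicates 1 to 4 and 363, 260.0, 477 and 460.3 CPM in Trp53ΔIECAktE17K replicates 1 to 4. All 4 tumours with active AKT lay above all 4 without it. The log2 fold change was 1.19 ± 0.22 (SE, adjusted p = 0.0277). The gene is ENSMUSG00000021508, at 56288643 to 56296551 on the minus strand of chromosome 13 (GRCm38).

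Cxcl12, the stromal ligand of Cxcr4 that retains haematopoietic cells in their niches, had 36.3, 27.7, 35.5 and 30.9 CPM in Trp53ΔIEC tumours and 65.7, 51.7, 58.7 and 71.2 CPM in Trp53ΔIECAktE17K tumours. The groups did not overlap, and within each of them the tumours stayed close together, with the highest 1.31 and 1.38 times the lowest. The log2 fold change was 0.92 ± 0.15 (SE, adjusted p = 0.0205) for this gene on chromosome 6 (ENSMUSG00000061353, 117168535 to 117181367, plus strand). Its receptor Cxcr4, carried by many leukocytes and by some endothelial and tumour cells, rose as well (0.98 ± 0.22 on the log2 scale, SE, with an adjusted p of 0.0481). Cxcr4 had 12.1, 11.96, 18.8 and 10.2 CPM in Trp53ΔIEC and 24.4, 23.9, 30.4 and 25.7 CPM in Trp53ΔIECAktE17K tumours. It had the highest mean level per length of the 18 receptor genes over the 8 tumours (7.34 and 14.4 CPM per kb by group) and lies at 128588199 to 128592293 on the minus strand of chromosome 1 (ENSMUSG00000045382). Ackr3, the scavenging receptor for Cxcl12, had 51.5 ± 10.4 and 62.6 ± 32.2 CPM (SD, n = 4, edgeR adjusted p = 0.690).

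Ccl11, or eotaxin, the main attractant of eosinophils through Ccr3, showed the largest fold change among the tested members. Its level was 10.8, 3.42, 2.79 and 1.54 CPM in Trp53ΔIEC tumours and 38.0, 169, 80.3 and 21.7 CPM in Trp53ΔIECAktE17K tumours. The highest Trp53ΔIEC tumour stayed below the lowest Trp53ΔIECAktE17K tumour, but the latter spread widely among themselves. The log2 fold change was 4.05 ± 0.84 (SE, adjusted p = 0.0396). It was 3.30 without Trp53ΔIECAktE17K replicate 2 (adjusted p = 0.0723) and 4.89 without Trp53ΔIEC replicate 1. Ccl11 is ENSMUSG00000020676, at 82057823 to 82062955 on the plus strand of chromosome 11.

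Ccl9, a ligand of Ccr1 made by macrophages and other myeloid cells, rose from 6.70, 7.22, 12.01 and 9.26 CPM to 37.3, 50.9, 23.5 and 32.4 CPM. The groups did not overlap, and the log2 fold change was 2.03 ± 0.29 (SE, adjusted p = 0.0149). It is ENSMUSG00000019122, at 83572919 to 83578636 on the minus strand of chromosome 11. Its receptor Ccr1, on neutrophils, monocytes and macrophages, had 10.6, 26.1, 36.8 and 19.9 CPM in Trp53ΔIEC and 22.6, 33.8, 12.8 and 29.9 CPM in Trp53ΔIECAktE17K tumours. Those ranges overlapped almost wholly (0.09 on the log2 scale, with an adjusted p of 0.932).

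**Figure D2:**
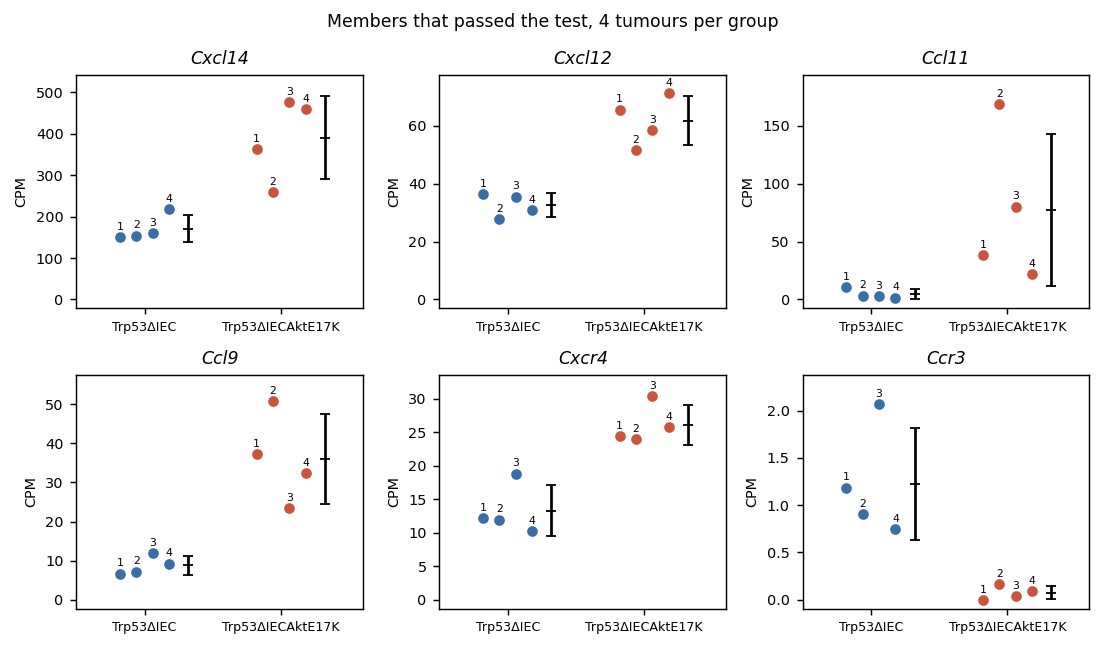
CPM of the 6 members that passed the test, each point a tumour labelled by its replicate number and each bar the mean ± SD of the 4 tumours. In none of the 6 panels do the groups overlap. Ccl11 runs from 21.7 to 169 CPM within the Trp53ΔIECAktE17K tumours, while Cxcr4 runs from 23.9 to 30.4 CPM.

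Ccr3, the eotaxin receptor of eosinophils and of some mast cells and T cells, was lower where its ligand Ccl11 was higher. It had 31, 24, 37 and 16 reads in the Trp53ΔIEC tumours, or 1.19, 0.902, 2.07 and 0.745 CPM. In the Trp53ΔIECAktE17K tumours it had 0, 4, 1 and 2 reads, or up to 0.165 CPM, and the 0 of replicate 1 allows up to 0.127 CPM (3 counts, counting error only). The log2 fold change was -3.93 ± 0.69 (SE, adjusted p = 0.0251). This gene of chromosome 9 (ENSMUSG00000035448, 124021972 to 124031689, plus strand) passed the filter through the group in which it was high.

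Ccl24, also called eotaxin 2 and another Ccr3 ligand, had 10.5, 4.14, 6.31 and 5.35 CPM in Trp53ΔIEC tumours and 0.212, 5.51, 0 and 0.326 CPM in Trp53ΔIECAktE17K tumours. Replicate 2 of the latter, with 134 reads, lay among the Trp53ΔIEC tumours, while the other 3 had 5, 0 and 7 reads, and the gene did not pass (-2.11 on the log2 scale, with an adjusted p of 0.384). Without that replicate it was called lower (-5.19 on the log2 scale, with an adjusted p of 0.0420). Ccl26, the remaining gene of the eotaxins, had 1 read in Trp53ΔIEC replicate 1 and 0 in the other 7 tumours.

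The Ccr3 values stood beside those of the cells that carry this receptor. The 4 eosinophil markers summed to 0.931 to 2.12 CPM in Trp53ΔIEC and 0.336 to 1.99 CPM in Trp53ΔIECAktE17K tumours, so they were near 0 in both groups. The 1 marker with enough reads to be tested had a log2 fold change of 0.10 and was not called. The eosinophil granule gene Epx had too few reads to be tested. It was at 0.0465 to 0.191 CPM in Trp53ΔIEC and at 0 to 0.0423 CPM in Trp53ΔIECAktE17K tumours. In Trp53ΔIEC replicate 4, 0.0465 CPM is 1 read, so levels this low cannot separate the groups. Epx was picked from the list after its values were seen. The 7 mast cell markers had a median log2 fold change of -1.62, with 0 of 7 called, and summed to 113 to 1430 and 9.41 to 332 CPM. Their part in the Ccr3 result was not tested.

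Stromal and squamous markers were read beside the ligands that rose. Of 8 fibroblast markers 4 were higher, and the list summed to 2244 to 3456 CPM in Trp53ΔIEC and 4274 to 7025 CPM in Trp53ΔIECAktE17K tumours. All 6 smooth muscle markers were higher, with sums of 261 to 439 and 1060 to 1726 CPM. Vascular endothelial markers, 1 of 6 higher, summed to 122 to 242 and 203 to 388 CPM, with overlap. Lymphatic endothelial markers, 1 of 4 higher, overlapped as well, with sums of 228 to 275 and 102 to 327 CPM. Squamous epithelial markers, 5 of 7 higher, summed to 49.1 to 193 and 196 to 16282 CPM. With a median log2 fold change of 7.86, some of them may have passed the filter only through the Trp53ΔIECAktE17K tumours. Of all genes tested, 3.44% were called higher. The part of these stromal and squamous markers in the rise of Cxcl14, Cxcl12 and Ccl11 was not tested. In whole tumours, more cells of a type and more RNA per cell cannot be told apart.

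**Figure D3:**
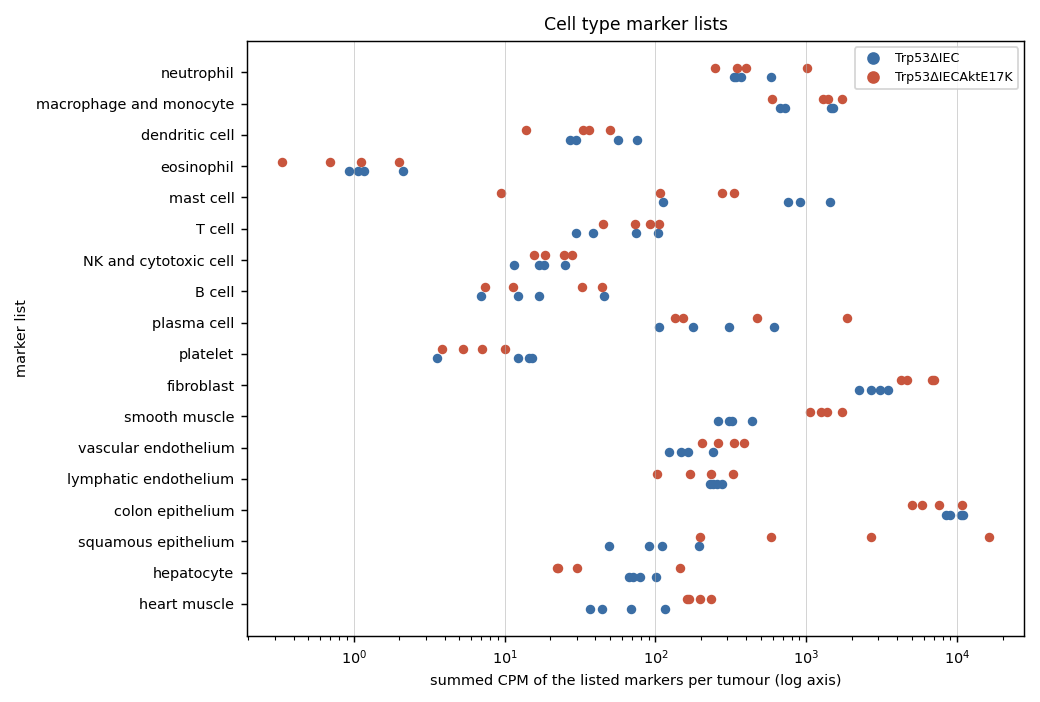
Summed CPM of each cell type marker list per tumour, on a log axis, with blue points for the 4 Trp53ΔIEC and orange points for the 4 Trp53ΔIECAktE17K tumours. The smooth muscle, fibroblast, heart muscle and squamous epithelium sums do not overlap between the groups, the last by a small margin (193 against 196 CPM). The macrophage and monocyte sums (671 to 1501 and 589 to 1715 CPM) do overlap.

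The inflammatory CC ligands Ccl3, Ccl4, Ccl5, Ccl6 and Ccl9 all had positive log2 fold changes, but beside Ccl9 none passed the test. Ccl3, made by activated macrophages, had 0.651, 2.90, 2.46 and 3.40 CPM in Trp53ΔIEC and 8.89, 46.3, 13.9 and 5.08 CPM in Trp53ΔIECAktE17K tumours (2.98 ± 0.79 on the log2 scale, SE, with an adjusted p of 0.0773). Ccl4, its close relative, had 0.957, 2.22, 3.02 and 2.05 CPM against 6.10, 20.8, 7.14 and 4.80 CPM (2.24 ± 0.57, SE, adjusted p = 0.0685). Neither gene overlapped between the groups, and both were highest in Trp53ΔIECAktE17K replicate 2, without which their log2 fold changes were 1.96 and 1.53. Without replicate 4 of that group Ccl3 was called higher (adjusted p = 0.0454). Ccl5, a T cell and macrophage product, had 0.804, 3.35, 3.30 and 1.91 CPM against 10.9, 57.4, 2.27 and 4.00 CPM. Here replicate 3 fell within the Trp53ΔIEC range (2.99 ± 1.04 on the log2 scale, SE, with an adjusted p of 0.148), and without replicate 2 the log2 fold change was 1.28. Ccl6, a myeloid chemokine related to Ccl9, had 27.2, 54.2, 50.4 and 29.5 CPM against 69.8, 77.3, 37.8 and 79.2 CPM (adjusted p = 0.238). DESeq2, which called 8.40% of all genes higher and 3.75% lower, called Ccl3, Ccl4, Ccl5 and the monocyte attractant Ccl2 higher too.

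Ccl2, the main ligand of Ccr2 on monocytes, had 5.09, 18.3, 5.87 and 9.40 CPM in Trp53ΔIEC and 22.8, 147, 42.7 and 21.8 CPM in Trp53ΔIECAktE17K tumours. The groups did not overlap, yet the gene did not pass (2.60 ± 0.73 on the log2 scale, SE, with an adjusted p of 0.0916). Without Trp53ΔIECAktE17K replicate 2 its log2 fold change was 1.56. Ccl7, another Ccr2 ligand, had 6.58, 69.9, 16.4 and 34.6 CPM against 27.0, 102, 32.3 and 18.6 CPM, so that its ranges overlapped (0.50 on the log2 scale, with an adjusted p of 0.752). Ccl12 and Ccl8, of the same gene cluster, differed by 0.61 and -0.63 on the log2 scale (adjusted p = 0.531 and 0.624). Ccr2 itself had 13.4 ± 12.1 and 10.4 ± 5.43 CPM (SD, n = 4, edgeR adjusted p = 0.812).

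The members lie in a few clusters, and neighbours within a cluster had unequal fold changes. Between 82035571 and 82305690 on chromosome 11 the order is Ccl2, Ccl7, Ccl11, Ccl12, Ccl8 and Ccl1, and Ccl11 with 4.05 stood between Ccl7 with 0.50 and Ccl12 with 0.61 on the log2 scale. Between 83525778 and 83664683 on the same chromosome all 5 genes, Ccl5, Ccl9, Ccl6, Ccl3 and Ccl4, had positive log2 fold changes, from 0.71 to 2.99. In the receptor cluster of chromosome 9 Ccr3 with -3.93 stood between Ccr1 with 0.09 and Ccr2 with -0.36. Differences between neighbouring genes were not tested.

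**Figure D4:**
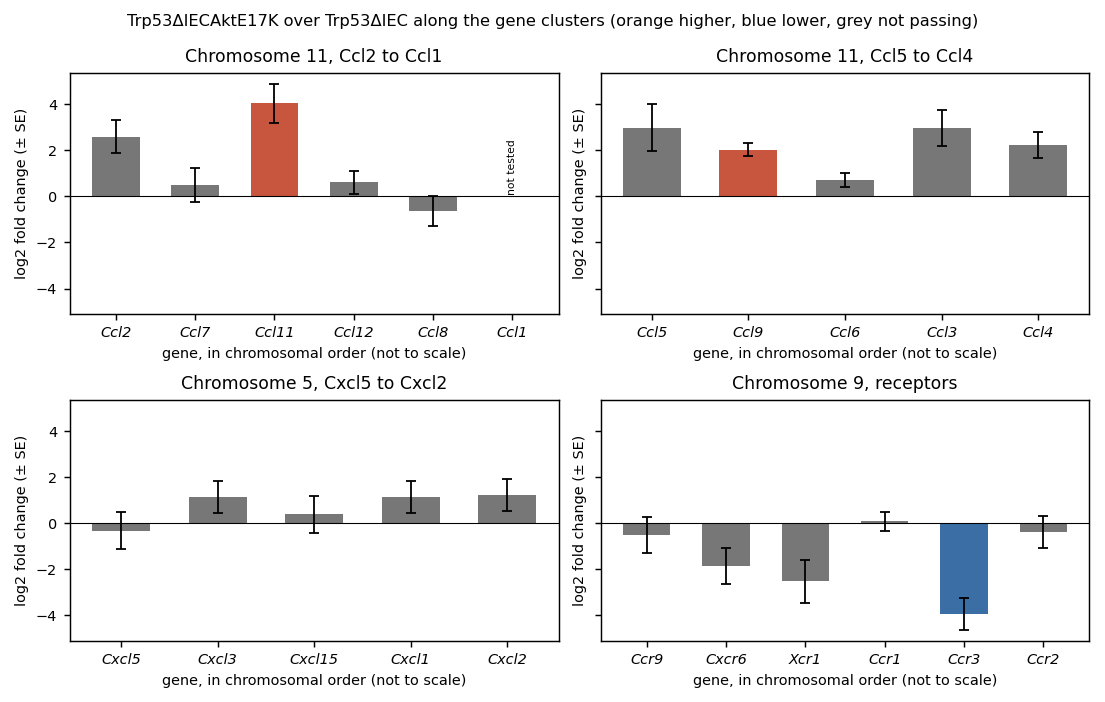
Log2 fold change with its standard error for members of 4 gene clusters, in chromosomal order and not to scale. Ccl11 and Ccl9 (orange) passed as higher and Ccr3 (blue) as lower, and Ccl1 was not tested.

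The neutrophil-attracting ELR ligands were variable among tumours of the same group, and none of the 5 passed. Cxcl5 had the second highest level per length of all ligands, with 28.4, 362, 254 and 523 CPM in Trp53ΔIEC and 202, 408, 58.4 and 272 CPM in Trp53ΔIECAktE17K tumours (-0.31 ± 0.79 on the log2 scale, SE, with an adjusted p of 0.861). Its lowest level was in Trp53ΔIEC replicate 1 and its highest in replicate 4 of the same group, 18.4 times apart. Cxcl1 had 8.42, 60.6, 20.95 and 23.1 CPM against 21.97, 119, 33.1 and 76.9 CPM (adjusted p = 0.377), and Cxcl2 had 6.89, 65.7, 24.1 and 22.7 CPM against 25.5, 130.1, 43.3 and 84.3 CPM (adjusted p = 0.351). Both were lowest in Trp53ΔIEC replicate 1 and highest in Trp53ΔIECAktE17K replicate 2. The ratio of the Cxcl2 to the Cxcl1 level stayed between 0.818 and 1.31 in all 8 tumours. These are the neighbours whose promoters share the kappaB element printed above. Cxcl3, which shares it too, was lowest and highest in the same 2 tumours, with 2.49, 22.6, 8.88 and 29.7 CPM against 44.7, 56.0, 16.2 and 24.3 CPM (adjusted p = 0.391). This order was not particular to these neighbours. Ccl2, Ccl3, Ccl4, Ccl5, Ccl7, Cxcl9 and Cxcl10, of other clusters, were also lowest and highest in those 2 tumours. A link between the element and the levels was not tested. Cxcl15 had 2.06 ± 1.05 and 2.70 ± 3.39 CPM (SD, n = 4).

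Cxcr2, the neutrophil receptor for these ligands, had 1.57, 6.73, 18.1 and 6.10 CPM in Trp53ΔIEC and 2.16, 10.5, 3.40 and 14.1 CPM in Trp53ΔIECAktE17K tumours (-0.10 on the log2 scale, with an adjusted p of 0.960). Both groups covered nearly the same range, and the sign turned with the processing. Of 13 tested neutrophil markers 2 were higher, the collagenase gene Mmp8 and the granule peptide gene Camp, which had 0 to 1 reads in the Trp53ΔIEC tumours and passed the filter through the other group. The summed markers were 332 to 580 CPM in Trp53ΔIEC and 249 to 1004 CPM in Trp53ΔIECAktE17K tumours. Cxcr1, the second ELR receptor, had 0 to 8 reads per tumour and was not tested.

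The interferon-induced Cxcr3 ligands likewise followed single tumours. Cxcl9 had 1.11, 81.6, 87.5 and 31.4 CPM in Trp53ΔIEC and 32.2, 126, 12.3 and 27.5 CPM in Trp53ΔIECAktE17K tumours, with nearly equal group means (50.4 and 49.6 CPM, or -0.02 ± 1.07 on the log2 scale, SE, with an adjusted p of 0.994). The highest Trp53ΔIEC tumour was 78.8 times the lowest, the widest span of a tested member in that group. Cxcl10 had 20.4 ± 14.4 and 48.7 ± 45.8 CPM (SD, n = 4, edgeR adjusted p = 0.442). Cxcl11, no member, had 4.73 ± 2.81 and 15.8 ± 13.7 CPM (edgeR adjusted p = 0.263). Cxcr3 had about 1 CPM in both groups (1.00 ± 0.5998 and 0.888 ± 0.532, SD, n = 4).

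**Figure D5:**
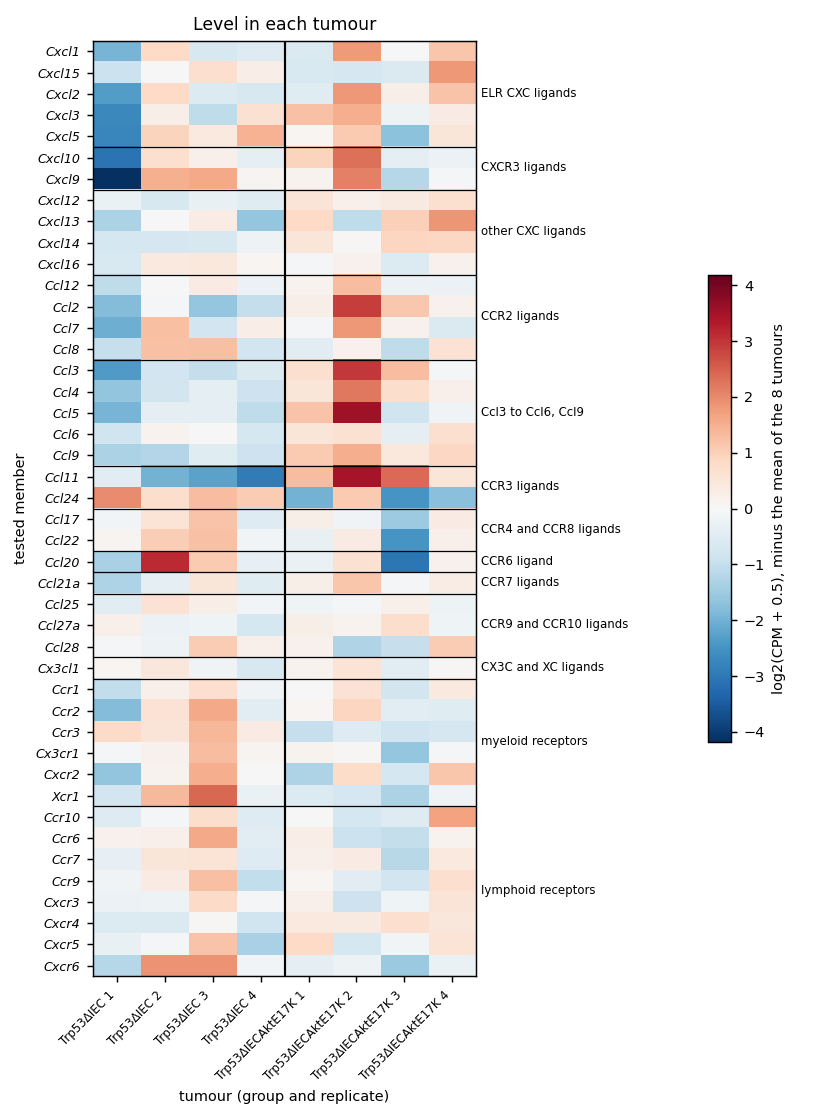
Level of 44 of the 45 tested members in each tumour, as log2(CPM + 0.5) minus the mean over the 8 tumours, with the families separated by lines. Trp53ΔIEC replicate 1 is blue for most ligands of inflammation, Trp53ΔIECAktE17K replicate 2 is red for Ccl2, Ccl3, Ccl5 and Ccl11, and Trp53ΔIEC replicate 3 is red for most receptors.

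Single tumours thus set much of the spread. Trp53ΔIEC replicate 1 had the lowest level of the 8 tumours in 23 of the 45 tested members, where it did in 12.3% of all tested genes. Trp53ΔIECAktE17K replicate 2 was highest in 16 and Trp53ΔIEC replicate 3 in 17 of the 45, against 11.4% of all genes each. Trp53ΔIECAktE17K replicate 3 was lowest in 10 of 45, but it was also the tumour most often highest and lowest over all genes (21.5% and 20.7%).

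Receptors of lymphocytes and dendritic cells were mostly low, and none but Cxcr4 passed. Xcr1, the receptor of cross-presenting dendritic cells, had 0.459, 3.76, 8.44 and 0.884 CPM in Trp53ΔIEC and 0.635, 0.535, 0.168 and 1.02 CPM in Trp53ΔIECAktE17K tumours (-2.51 on the log2 scale, with an adjusted p of 0.174). Its log2 fold change was -1.56 without Trp53ΔIEC replicate 3, and DESeq2 called the gene lower (adjusted p = 0.0395). Cxcr6, on resident T and innate lymphoid cells, had 1.22, 13.9, 14.0 and 3.16 CPM against 2.58, 2.88, 0.840 and 2.75 CPM (-1.83 on the log2 scale, with an adjusted p of 0.225). In both genes Trp53ΔIEC replicates 2 and 3 stood above all other tumours, and the remaining tumours overlapped. Cx3cr1, a receptor of intestinal macrophages, had 23.9, 28.9, 63.4 and 27.9 CPM against 28.1, 26.1, 7.98 and 23.8 CPM (adjusted p = 0.382). Its ligand Cx3cl1 had 50.02 ± 16.2 and 54.6 ± 16.1 CPM (SD, n = 4, edgeR adjusted p = 0.844). The dendritic cell markers, 0 of 7 called, summed to 27.1 to 75.8 and 13.9 to 49.6 CPM, and the T cell markers, 0 of 9 called, to 29.7 to 103 and 44.8 to 106 CPM.

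In order of mean level per length over the 8 tumours, the first 5 receptors were Cxcr4, Ccr1, Cx3cr1, Cxcr6 and Cxcr2. Cxcr4 came after Ccr1 and Cx3cr1 in the Trp53ΔIEC tumours (7.34, 8.24 and 7.99 CPM per kb), and Cxcr6 had its place through that group alone (4.19 against 1.17 CPM per kb). The first 5 ligands were Cxcl14, Cxcl5, Ccl7, Ccl11 and Cxcl16. Ccl11 owed its place to the Trp53ΔIECAktE17K tumours (71.4 against 4.29 CPM per kb). In the Trp53ΔIEC tumours Cxcl5 (157 CPM per kb) came before Cxcl14 (93.7 CPM per kb) by their means, though Cxcl5 varied too much between tumours to separate them. Cxcl16, the membrane-bound ligand of Cxcr6, had 56.4, 116, 119.8 and 92.8 CPM against 84.6, 98.9, 58.9 and 101 CPM (-0.17 on the log2 scale, with an adjusted p of 0.766), with full overlap. Exons of Cxcl16, Cxcl10, Ccl25, Ccl27a, Xcl1, Ccr9, Cxcr5 and Cx3cr1 overlap those of other genes in the annotation, so their counts are uncertain to that extent.

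Among the ligands of lymphoid tissue and mucosa, Cxcl13, the B cell attractant, had 3.48, 9.51, 11.7 and 2.70 CPM against 17.3, 4.28, 19.1 and 35.2 CPM (1.47 on the log2 scale, with an adjusted p of 0.263). Ccl21a, which acts on Ccr7, had 0.268, 0.940, 2.18 and 0.838 CPM against 1.74, 3.74, 1.34 and 1.86 CPM (adjusted p = 0.362). Both overlapped between the groups. Ccl20, the epithelial ligand of Ccr6, ranged from 3.90 to 99.2 CPM and from 0.882 to 17.0 CPM (-1.80 on the log2 scale, with an adjusted p of 0.387). The Ccr4 ligands Ccl22 and Ccl17 had log2 fold changes of -0.98 and -0.74, and the mucosal ligands Ccl25 and Ccl28 of -0.20 and -0.29 (adjusted p = 0.455, 0.630, 0.751 and 0.806). Ccl27a, a keratinocyte chemokine with near-identical copies on chromosome 4, had 1.87 ± 0.623 and 2.76 ± 0.895 CPM (SD, n = 4, edgeR adjusted p = 0.419).

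The other receptors of B and T cells, Ccr6, Ccr7, Ccr9, Ccr10 and Cxcr5, had log2 fold changes from -1.36 to 0.67, and none passed the test. Ccr6, with -1.36, had 2 to 53 reads per tumour. The 10 members that were not tested were Ccl1, Ccl19, Ccl21b, Ccl26, Ccl27b, Xcl1, Cxcl17, Ccr4, Ccr8 and Cxcr1. Of these Ccl19, Ccl21b and Ccl27b were listed at 0 in all 8 tumours. They have near-identical copies on chromosome 4, and reads that align to several places were not counted for any gene. Cxcl17, a mucosal chemokine, had 1, 4, 5 and 1 reads in Trp53ΔIEC and 17, 238, 890 and 4 reads in Trp53ΔIECAktE17K tumours. Replicates 2 and 3 held nearly all of them, at 9.79 and 37.4 CPM, so that too few tumours reached the filter. DESeq2, without that filter, called Cxcl17 higher (adjusted p = 1.75e-05), while edgeR without the filter did not (adjusted p = 0.0955).

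Genes that act around the chemokines were read from lists. Of 12 tested cytokines that induce chemokines 2 were higher, Il6 (0.551 ± 0.228 against 22.2 ± 27.5 CPM) and the neutrophil growth factor gene Csf3 (0.395 ± 0.389 against 7.10 ± 6.08 CPM), both SD with n = 4. Both were highest in Trp53ΔIECAktE17K replicate 2, at 62.9 and 16.1 CPM, and both passed the filter through the group in which they were high. The 12 had a median log2 fold change of 1.03, and 5 had an unadjusted p under 0.05 (edgeR), where 20.8% of all genes did. Tnf and Il1b, classical inducers, differed by -0.90 and 1.54 on the log2 scale (adjusted p = 0.282 and 0.220). Il1a, whose groups did not overlap, differed by 2.05 and Osm by 1.79 (adjusted p = 0.0730 and 0.127). Il17a and Il17f differed by -2.09 and -2.37 (adjusted p = 0.366 and 0.272). None of 14 NF-kB and feedback genes and none of 13 interferon response genes was called, with medians of -0.32 and 0.46 and with 3 and 4 of them at an unadjusted p under 0.05 (edgeR). Of 16 genes of receptor signalling 1 was higher, Rgs16, which shortens G protein signals (18.7 ± 9.63 against 92.1 ± 40.3 CPM, SD, n = 4). None of the 5 atypical receptors was called in edgeR. A single gene of them had an unadjusted p under 0.05, the venular chemokine carrier Ackr1, whose groups did not overlap (1.29 ± 0.499 against 4.03 ± 1.51 CPM, SD, n = 4, adjusted p = 0.0761). The platelet genes Pf4 and Ppbp differed by 0.19 and 1.85 on the log2 scale (adjusted p = 0.810 and 0.264).

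The calls were close to the threshold, and leaving out 1 tumour at a time ended many of them, while the sign of all 6 stayed the same in all 8 fits. Ccl9 lost its call without Trp53ΔIEC replicate 2 or 4 (adjusted p = 0.0629 and 0.0638). Cxcl12 lost it without Trp53ΔIEC replicate 2, 3 or 4 or Trp53ΔIECAktE17K replicate 1 (0.0600 to 0.0761). Ccr3 lost it without any 1 of the 4 Trp53ΔIEC tumours (0.0574 to 0.0739), and its log2 fold change was -4.65 without Trp53ΔIECAktE17K replicate 2. Cxcl14 lost it without any 1 of the Trp53ΔIEC tumours or without Trp53ΔIECAktE17K replicate 1 (0.0667 to 0.0932). Ccl11 kept its call without Trp53ΔIEC replicate 1 or Trp53ΔIECAktE17K replicate 4 and lost it in the other 6 fits (0.0590 to 0.114). Cxcr4 lost it in all 8 fits (0.0504 to 0.131).

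These fits also called fewer genes as a whole, apart from the one without Trp53ΔIECAktE17K replicate 4. Of all genes tested, 1.28%, 0.379%, 0.425% and 0.395% were called higher without Trp53ΔIEC replicates 1 to 4 in turn, and 0.927%, 1.50%, 3.37% and 4.16% without Trp53ΔIECAktE17K replicates 1 to 4. The shares called lower were 0.219%, 0.0592%, 0.0826% and 0.0707% in the former fits and 0.150%, 0.221%, 0.583% and 1.46% in the latter. With all 8 tumours, limma-voom called 2.48% higher and 0.647% lower, with 4 and 1 of the members. DESeq2's size factors gave 3.13% and 0.774%, also with 4 and 1 members, and no filter on low counts gave 1.96% and 0.319%, with 3 and 1. The replicate number as a block gave 0.290% and 0.0121%, with no member, and the title letter as a term gave 0.544% and 0.0363%, with Cxcl14 as the only member. That letter is A in the titles of Trp53ΔIECAktE17K replicates 1 and 2 and B in all others, while all 4 tumours of this group carry A in the names of their tables. What it marks is not stated. That fit compares the genotypes only through Trp53ΔIECAktE17K replicates 3 and 4 against the 4 Trp53ΔIEC tumours.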

How the data were processed

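Gene expression was measured by RNA sequencing of mRNA libraries (RNeasy Mini and TruSeq mRNA v2 kits, per the labels' protocols, of which the latter does not mark strand), 1 whole tumour per mouse. Per Ensembl gene, whole read counts were deposited in 1 table per tumour, with 5 closing lines of unassigned reads, which were set aside (no feature 9.74% to 11.7% and ambiguous 1.93% to 2.32% of uniquely aligned reads). Per the submitters' processing notes the build is mm10 and the tools include STAR 2.3.0, HTSeq 0.6 and DESeq2 1.8.1. The sources used here name neither the annotation release nor the strand setting of the counting. Symbols, types, positions and exon lengths were taken from GENCODE M21 (GRCm38), which held 95.4% of the identifiers.

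Counts were tested with edgeR 4.0.16 in R 4.3.3 (filterByExpr, TMM scaling, quasi-likelihood F-test with robust dispersions, group as the only term, Benjamini-Hochberg adjustment over 16539 genes, called at adjusted p under 0.05). The standard error is the size of the log2 fold change divided by the root of F. CPM uses the TMM-scaled library size, and means are given ± SD over 4 tumours. Alternatives were DESeq2 1.42.0, its size factors, limma-voom (limma 3.58.1), no filter, the replicate number or the title letter as a term, and each tumour left out.

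Values in every tumour are given for the called members, the 12 members not called with the smallest p, the 5 ligands and the 5 receptors with the highest CPM per kb, and the partners of called members. Cxcl3, Cxcl9 and Cxcl17 by tumour, and Ackr3, Epx and the list genes that were not called, were added after their values were seen. The members and lists were chosen with earlier results of these data known. The values of 1 tested receptor gene are not reported here, though it is counted among the members.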

Additional observations from a re-analysis of the deposited data

Results flagged for a closer look

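Among the 4 tumours of a group, a value was looked at again where the gap to its nearest neighbour divided by the group's range exceeded Dixon's critical value. This holds by chance in about 1 in 20 groups of normally distributed values. Here it held in 9 of 49 groups of the members described by tumour, with Cxcl3, Cxcl9 and Cxcl17 not checked. Trp53ΔIECAktE17K replicate 2 stood apart as the highest for Ccl2 (147 CPM, the others 21.8 to 42.7), Ccl4 (20.8 CPM, the others 4.80 to 7.14), Ccl5 (57.4 CPM, the others 2.27 to 10.9), Ccl7 (102 CPM, the others 18.6 to 32.3) and Ccl24 (5.51 CPM, the others 0 to 0.326). Trp53ΔIECAktE17K replicate 3 stood apart as the lowest for Cxcr6 (0.840 CPM, the others 2.58 to 2.88). Trp53ΔIEC replicate 3 was the highest for Cx3cr1 (63.4 CPM, the others 23.9 to 28.9) and Trp53ΔIEC replicate 4 for Cxcl14 (219 CPM, the others 151 to 161). Ccl26 had its single read, 0.0383 CPM, in Trp53ΔIEC replicate 1.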

How the results depend on the processing

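Of all genes, 569 were called higher and 125 lower. DESeq2 gave 1721 and 768, the title letter as a term 90 and 6, and leaving out 1 tumour 64 to 702 and 10 to 247. Of the chemokine and receptor genes, 5 were called higher and 1 lower. DESeq2 gave 10 and 2, the title letter as a term 1 (Cxcl14) and 0, no filter 3 higher, and leaving out 1 tumour 0 to 6 higher and 0 to 2 lower. Both counts were 0 without Trp53ΔIEC replicate 2 or 4. Fits with fewer tumours have fewer residual degrees of freedom. The titles do not say whether tumours with the same replicate number belong together. Deviations of same-numbered tumours from their group means had correlations from -0.24 to 0.01, which cannot settle it. With the replicate number as a block the counts were 48 higher and 2 lower of all genes and 0 and 0 of the members. Limma-voom did not call Ccl11 (adjusted p = 0.0709), and DESeq2's size factors did not call Cxcr4 (adjusted p = 0.0509).

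Signs were compared between fits only for the tested members given by tumour, apart from Cxcl3 and Cxcl9. They turned in 4 of these, none of them called. Ccl7 had a log2 fold change of -0.32 with the title letter as a term and -0.32 to 1.23 with 1 tumour left out, Cxcl5 -0.74 to 0.12 with 1 tumour left out, and Ccr1 -0.13 with the letter and -0.16 to 0.37 with 1 left out. Cxcr2 had 0.030 in limma-voom, 0.071 with the replicate block, 0.11 with the letter and -0.61 to 0.63 with 1 left out. The cause was not tested. Depth limits Ccr3, Ccl24, Ccl26, Cxcl17 and Cxcr1, with fewer than 10 reads in more than 1 tumour. The same holds for Ccl1, Xcl1, Ccr4, Ccr6, Ccr8 and Ccr9, and for the members at 0 in all tumours.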
